A study of Danio rerio with 14 samples.

Results

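In the abdomen of zebrafish larvae injected with a morpholino against the type 3 deiodinase (D3MO), some transcripts of skeletal muscle, of embryonic globins and of the complex that charges transfer RNAs were more abundant than in larvae that received the standard control morpholino (SCMO), and some of ribosomal proteins, of smooth muscle and of the liver were less abundant. The contrast is D3MO over SCMO, so a positive log2 fold change means more transcript in D3MO. It held 13270 probes, which is every probe of the 3 contrasts deposited for this body region, and all of them were kept. They come from 14 two-colour arrays, of which 4 set D3MO directly against SCMO, with D3MO in Cy5 on 2 and in Cy3 on 2. A further 6 arrays set D1D2MO, a joint knockdown of the type 1 and type 2 deiodinases, against SCMO, and 4 set D3MO against D1D2MO.

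All 3 groups were wild-type fish of the WIK strain, injected into the yolk at an early cleavage stage, kept at the same temperature and dissected at 72 hours post fertilization (hpf). D3MO carried a morpholino against dio3b, D1D2MO a pair of morpholinos, and SCMO the control oligonucleotide, so the controls were injected as well. A morpholino blocks translation for a limited time and removes no gene. Each sample was a pool of abdomens, 20 per replicate by the labels and more than that by the methods, which give 4 biological replicates per group, each labelled once with each dye. The 8 D3MO samples on the arrays are thus repeats of 4 pools. The methods name yolk, swim bladder, liver and gut as the contents of this region. No named probe of dio3b was found, so the targeted gene was not analysed here, and a block of translation need not change its messenger RNA.

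Deiodinases set how much active thyroid hormone a cell holds. The type 1 and type 2 enzymes make triiodothyronine, the form that binds the nuclear receptors, from thyroxine, and the type 3 enzyme turns thyroxine and triiodothyronine into forms that the receptors bind poorly. Thyroid hormone is known for its part in the switch of muscle fibre types, in the larval to juvenile transition of fish and in the maturation of gut and liver.

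The tables used here hold fitted contrasts and no values of single arrays, so levels per sample cannot be shown, and every value below is a fitted log2 fold change with its standard error (SE). A probe was called where its limma p-value, adjusted by the Benjamini-Hochberg method over all probes, was below 0.05 and its fold change exceeded 1.5 in either direction. Of the 13270 probes 144 were called, which is 1.09% of them. Of these 109 were higher in D3MO (0.821% of all probes) and 35 were lower (0.264%). The median log2 fold change over all probes was -0.01 with quartiles at -0.09 and 0.07, and 90.1% of probes lay within 1.2-fold of no change. Changes over 2-fold were found for 30 called probes higher in D3MO and for 4 lower in D3MO. The probes with the smallest p-values were those of the embryonic globin hbbe3 and of adenylate kinase ak1 on the higher side, and of acta2, rpl22l1 and fabp10a on the lower side.

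**Figure D1:**
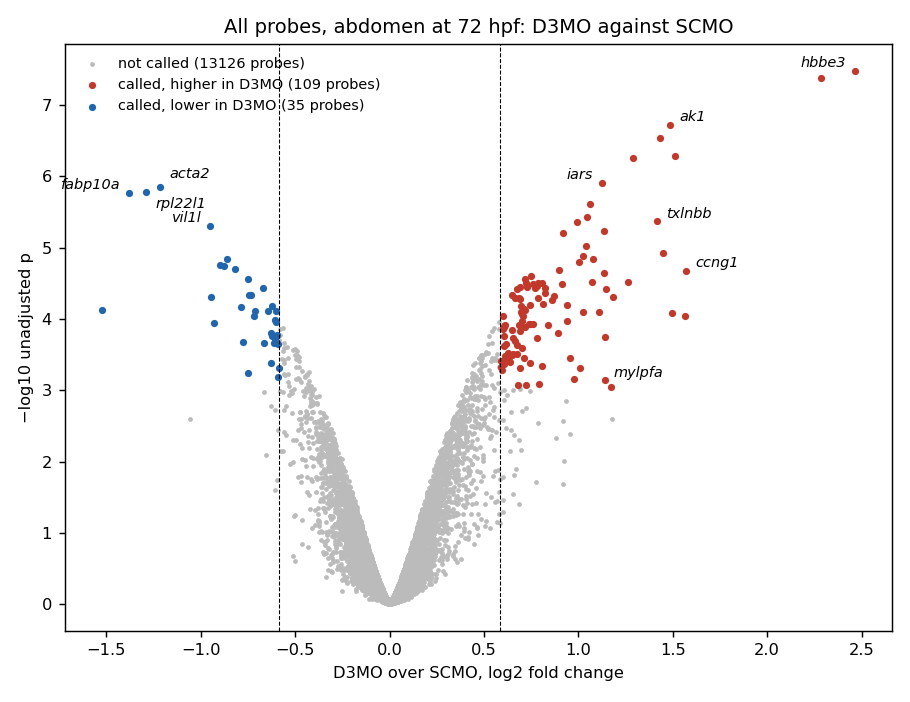
Each point is 1 of 13270 probes, with the log2 fold change of D3MO over SCMO on the x axis and −log10 of the unadjusted limma p-value on the y axis, and dashed lines mark 1.5-fold. The 109 probes called higher in D3MO reach a log2 fold change of 2.46, and the 35 called lower reach -1.52.

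A symbol could be given to 888 probes of 740 genes, and 133 of the 144 called probes had one. These stood for 98 genes, 72 higher and 26 lower in D3MO. Where a gene had several probes, the one with the smallest p-value in this contrast stands for it, which favours large values, so the number of its probes that were called is given for the genes the results turn on. Of the named probes 784 took their symbol from the study's list of transcripts that changed in some contrast, so having a name already favours a change. Accessions that gave names also came from the authors' short lists of changed probes for each of the 3 contrasts. That of D3MO against D1D2MO was among them, so a name also favours a difference between the knockdowns. Of the 740 named genes 98 were called, which is 13.2%, and their median was 0.05. The counts and medians of gene lists below are descriptions to be read beside those 2 values, more than beside the 1.09% and -0.01 of all probes. The plot of named genes by list shows 21 of the gene lists beside the interquartile range of all probes.

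**Figure D2:**
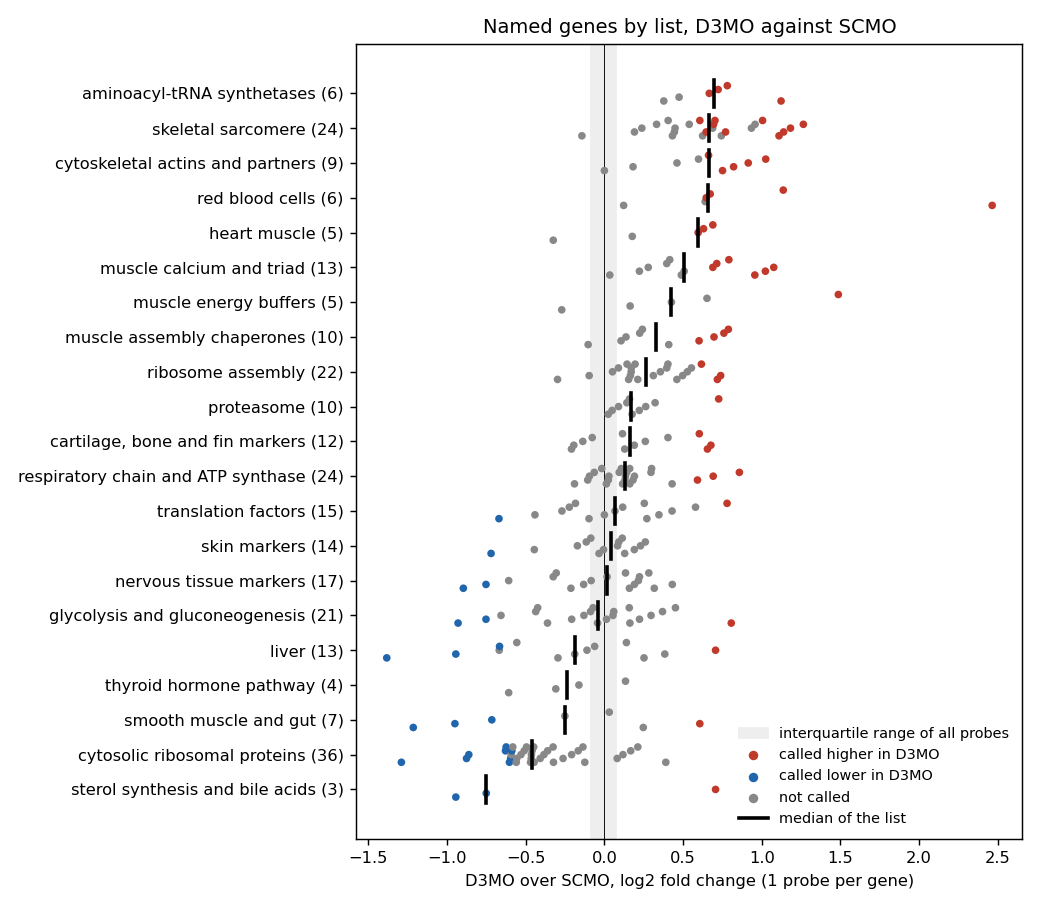
Each point is a named gene in 1 of 21 gene lists with at least 3 measured genes (number in brackets), the x axis is the log2 fold change of D3MO over SCMO, and black bars are list medians. Medians run between -0.75 for sterol synthesis and bile acids and 0.70 for the aminoacyl-tRNA synthetases, against an interquartile range of all probes between -0.09 and 0.07 (grey band).

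Among the lists, that of the sarcomere, the contractile unit of skeletal muscle, held the most genes that rose. Of 24 named sarcomere genes 10 rose and none fell, with a list median of 0.67, against 0.05 over the named genes. Actin genes were among them, with the cardiac and skeletal alpha actins actc1a at 1.26 (SE 0.13, adjusted p = 0.0108) and acta1b at 0.77 (SE 0.083, adjusted p = 0.0108), and acta1a with 1 of 3 probes called. The thick filament followed, with the fast myosin heavy chain myhz1.1 at 1.18 (SE 0.13, adjusted p = 0.0119) and its regulatory light chain mylpfa at 1.14 (SE 0.20, adjusted p = 0.0439). The slow fibre heavy chain smyhc3 also rose, at 0.61 (SE 0.079, adjusted p = 0.0181), so the called myosins came from both fibre types. Thin filament and Z-disc genes that rose were tropomyosin tpma at 1.11, troponin T tnnt3a at 0.69, the giant scaffold titin ttnb at 0.65 and the calcineurin-binding Z-disc protein myoz1b at 0.70. Some other sarcomere genes had values as large with wider errors and did not pass the test. The heavy chain myhz1.2 was at 0.93 (SE 0.18, adjusted p = 0.0637), the light chain mylpfb at 0.74 (SE 0.14, adjusted p = 0.0524), troponin T tnnt3b at 0.62 (SE 0.12, adjusted p = 0.0556) and the Z-disc protein pdlim7 at 0.69 (SE 0.13, adjusted p = 0.0508). The second titin gene, ttna, passed the adjusted p but not 1.5-fold, at 0.54 (SE 0.091, adjusted p = 0.0398). Lower values that did not pass were those of the heavy chains myhz2 (-0.14) and smyhc2 (0.19), actc1b (0.24) and mybpc2b (0.33). In D1D2MO the median of the sarcomere list was 0.56, so higher values were not particular to D3MO. At an adjusted p below 0.05, 11 of the 24 genes differed between the knockdowns, 6 higher and 5 lower in D3MO.

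The probes of a muscle gene did not always give the same value. Only 1 of 6 probes of myhz1.1 was called, and they ran between 0.38 and 1.18. For tpma 2 of 4 probes were called and the range, -0.31 to 1.17, crossed 0. The other probes of actc1a lay at 0.49 and 0.56 and were not called. That of myoz1b lay at 0.14. With the mean over their probes myoz1b, myhz1.1 and acta1a lost their call, and 7 sarcomere genes were called in place of 10. By contrast 5 of 6 probes of the skeletal actin acta1b were called, all between 0.68 and 0.92, and all 3 probes of ak1, the muscle form of adenylate kinase, lay between 1.43 and 1.51. Members of multigene families such as the fast myosins and the actins are close in sequence, and the probes of one may bind transcripts of another.

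**Figure D3:**
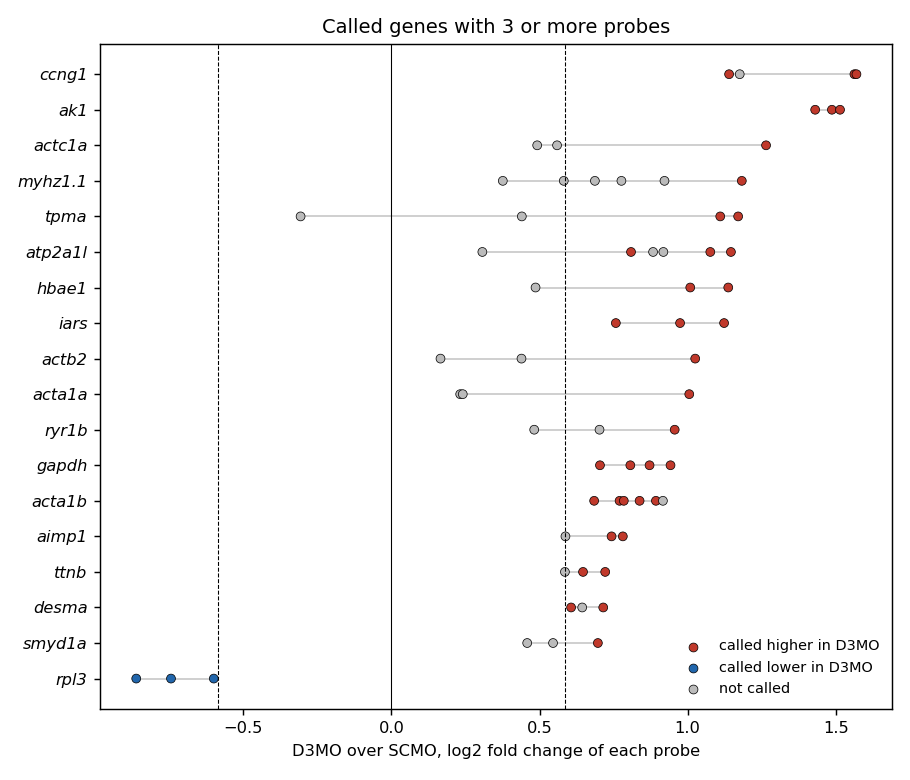
Each point is a probe of 1 of 18 called genes with 3 or more probes, the x axis is its log2 fold change of D3MO over SCMO, and dashed lines mark 1.5-fold. The probes of ak1, gapdh, acta1b and rpl3 lie close together, whereas those of tpma, myhz1.1, actb2 and acta1a spread widely and 1 tpma probe lies below 0.

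Several genes that release and recapture calcium in muscle were higher as well. Of 13 named genes of calcium handling and the triad, the junction between the surface membrane and the calcium store, 6 rose and none fell, with a median of 0.51. The calcium release channel ryr1b was at 0.96 (SE 0.15, adjusted p = 0.0304). The junctophilins jph1b and jph2, which tether the membranes of the triad, were at 0.71 and 0.79 (SE 0.14, adjusted p = 0.0478). Calsequestrin casq1b, which binds calcium inside the store, was at 0.69, and the calcium pumps atp2a1 and atp2a1l were at 1.02 and 1.08 (SE 0.10, adjusted p = 0.00873). All 13 values were positive. Only 1 of 3 probes of ryr1b, 1 of 2 of jph1b and 3 of 6 of atp2a1l were called. With the mean over the probes of each gene these 3 lost their call and 3 genes of the list were called in place of 6. The parvalbumins, soluble calcium buffers of fast fibres, lay under 1.5-fold, with pvalb2 at 0.51 (SE 0.077, adjusted p = 0.0296), pvalb3 at 0.49 (SE 0.079, adjusted p = 0.0343), and pvalb4 and pvalb1 at 0.28 and 0.42 without passing the test.

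Some genes that fold and assemble the myosin motor were higher too. Of 10 named chaperone genes of muscle assembly 4 rose and none fell, with a median of 0.33. The myosin chaperone unc45b was at 0.76 (SE 0.080, adjusted p = 0.0108), and its partner hsp90aa1.1 was at 0.79 (SE 0.083, adjusted p = 0.0108). The other probe of hsp90aa1.1 was at 0.44 and was not called. The lysine methyltransferase smyd1a was at 0.70 (SE 0.085, adjusted p = 0.0145), with 1 of 3 probes called. With the mean over its probes, 0.57, it lost its call. The fourth was cct2, a subunit of the chaperonin that folds actin, at 0.60. Further chaperonin subunits, cct4, cct6a and cct7, were at 0.41, 0.22 and 0.24 and did not pass. The paralogue smyd1b, at 0.14 (SE 0.11, adjusted p = 0.75), and the small heat shock protein hspb1, at 0.11 (SE 0.081, adjusted p = 0.747), did not pass the test. Muscle genes outside the lists were called too, namely a taxilin of muscle, txlnbb, at 1.42 (SE 0.11, adjusted p = 0.0041), the myosin-binding protein mybphb at 1.04 (SE 0.091, adjusted p = 0.00703), the methyltransferase mettl21e at 0.82 (SE 0.089, adjusted p = 0.0108) and the leucine-rich repeat gene lrrc20 at 0.81 (SE 0.095, adjusted p = 0.0135).

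Heart markers were measured for 5 genes, of which 3 rose. These were the cardiac myosin light chains cmlc1 at 0.69 (SE 0.078, adjusted p = 0.012) and myl7 at 0.63 (SE 0.097, adjusted p = 0.0304), and the transcription factor mef2ca at 0.60 (SE 0.094, adjusted p = 0.0318). Each light chain rests on 1 dim probe. Their mean log2 intensities were 7.12 and 7.07, against a median of 9.14 over the called probes. The study describes mef2ca as a regulator of muscle genes, without limiting it to the heart. The paralogue mef2cb was at -0.32 (SE 0.21, adjusted p = 0.673) and the heavy chain myh7 at 0.18 (SE 0.12, adjusted p = 0.703). Skeletal and heart muscle are not among the contents that the methods name for this region, and probes of both nevertheless passed the authors' background filter. How much muscle each pool held, and its part in these differences, was not tested. In bulk tissue a change in the number of cells of a type and a change in RNA per cell cannot be told apart, here and in the results that follow.

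Actins listed as cytoskeletal were called as well as those of the sarcomere list. Of 9 named genes of cytoskeletal actins and partners 5 rose and none fell, with a median of 0.66. The beta actins actb2 and actb1 were at 1.03 (SE 0.094, adjusted p = 0.00856) and 0.82 (SE 0.091, adjusted p = 0.0119), and the tropomyosin tpm4a was at 0.66 (SE 0.093, adjusted p = 0.023). The actin genes acte1 and actc2, the latter by its name a cardiac actin, were at 0.91 (SE 0.096, adjusted p = 0.0108) and 0.75 (SE 0.076, adjusted p = 0.0108). Profilin pfn1, which loads actin monomers, was at 0.00, and the tropomyosins tpm1 and tpm3 and the capping protein capza1b were at 0.60, 0.18 and 0.46, none past the test. For actb2 only 1 of 3 probes was called and the others lay as low as 0.17. The second probes of actb1 and tpm4a lay at 0.55 and 0.31, and with the mean over probes these 3 genes lost their call. The list then had 2 called genes in place of 5, acte1 and actc2, so no beta actin kept its call. By the probes that stand for them the 5 called genes were higher in D1D2MO than in D3MO, as was pfn1, whereas tpm1, tpm3 and capza1b did not differ past the test. The second probe of tpm4a went the other way, with D3MO minus D1D2MO at 0.59 (adjusted p = 0.0549), against -0.49 for the first. The difference D3MO minus D1D2MO was -1.17 (SE 0.094, adjusted p = 0.00311) for actb2 and -0.90 (SE 0.091, adjusted p = 0.00562) for actb1, although it was -0.21 (adjusted p = 0.438) for the second probe of actb1. Contrasts of D3MO with SCMO and with D1D2MO share the D3MO samples, and 5.57% of all probes passed an adjusted p of 0.05 in the contrast with D1D2MO.

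Amino acids are loaded onto transfer RNAs by synthetases, some of which sit on a shared scaffold, and 2 synthetases and 2 scaffold genes rose in D3MO. Of 6 named genes of the synthetases and their scaffold 4 rose, none fell, and the median was 0.70. Isoleucyl-tRNA synthetase iars was at 1.12 (SE 0.072, adjusted p = 0.00225) with all 3 probes called, and tryptophanyl-tRNA synthetase wars was at 0.67 (SE 0.076, adjusted p = 0.0119). The scaffold proteins of the synthetase complex, aimp1 and aimp1b, were at 0.78 (SE 0.083, adjusted p = 0.0108) and 0.72 (SE 0.076, adjusted p = 0.0108). The remaining members, eprs at 0.48 (SE 0.073, adjusted p = 0.0304) and qars at 0.38 (SE 0.086, adjusted p = 0.0999), were positive but under 1.5-fold. Against D1D2MO 5 of these 6 genes were higher, with wars at 0.61 (SE 0.076, adjusted p = 0.0102) and aimp1 at 0.55 (SE 0.083, adjusted p = 0.018).

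The lists of ribosome assembly and of ribosomal proteins had medians of opposite sign. Of 22 named assembly genes 3 rose and none fell, with a median of 0.26 and 20 of 22 values positive. The share called was about the 13.2% of all named genes. Those that rose were bysl, a factor of the small subunit, at 0.74 (SE 0.095, adjusted p = 0.0176), the ATP-binding protein abcf1 at 0.72 (SE 0.087, adjusted p = 0.0145) and the nucleolar protein pinx1 at 0.62 (SE 0.088, adjusted p = 0.024). Both probes of each were called, and each pair lay within 0.05 of each other. The assembly gene mybbp1a passed the adjusted p but not 1.5-fold, at 0.55 (SE 0.073, adjusted p = 0.0185), and the processing factors rrp12 and tsr1 were at 0.53 (SE 0.10, adjusted p = 0.0587) and 0.46 (SE 0.087, adjusted p = 0.0566). The nucleolar helicase ddx21 was at 0.36 (SE 0.097, adjusted p = 0.157) in D3MO and stood 0.75 above D1D2MO (adjusted p = 0.0112). Outside the list, pak1ip1, known in mammals for its part in large subunit assembly, was at 0.65 (SE 0.087, adjusted p = 0.0189), and abcf2b, a relative of abcf1, at 0.61 (SE 0.093, adjusted p = 0.0301).

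Of 36 named cytosolic ribosomal protein genes 8 fell and none rose, and 31 of 36 values were negative, with a median of -0.46. The lowest was rpl22l1, a paralogue of a large subunit protein, at -1.29 (SE 0.087, adjusted p = 0.00225), a 2.44-fold lower level in D3MO. All 3 probes of rpl3 were called, between -0.86 and -0.60. The other members that fell were rps9 at -0.88, rpl14 at -0.63, rpl7 at -0.62, rpl30 at -0.60, rpl18 at -0.60 and rpl5b at -0.59, which belong to both ribosomal subunits. A further 5 genes passed the adjusted p without reaching 1.5-fold, among them rpl15 at -0.56 (SE 0.081, adjusted p = 0.0261) and rps19 at -0.49 (SE 0.080, adjusted p = 0.0343). In D1D2MO the median of the same 36 genes was 0.33, and 31 of them were lower in D3MO than in D1D2MO at an adjusted p below 0.05, with rps9 at -1.33 (SE 0.084, adjusted p = 0.0026) and rpl13 at -0.97 (SE 0.077, adjusted p = 0.00308). Another 2, rps25 and rplp2, were higher in D3MO than in D1D2MO, by 0.61 (adjusted p = 0.027) and 0.59 (adjusted p = 0.0202). Names favour genes that differ between the knockdowns, so the 31 of 36 describes the named genes and not the whole family. Of 15 translation factors only eif3k, a subunit of an initiation complex, rose, at 0.78 (SE 0.11, adjusted p = 0.0217), and only eef1a1l2, an elongation factor, fell, at -0.67 (SE 0.072, adjusted p = 0.0108). The initiation factor eif2s2 passed the adjusted p just under 1.5-fold, at 0.58 (SE 0.094, adjusted p = 0.0344), and eif3f and the helicase eif4a1b were at -0.44 and -0.27 without passing. Against D1D2MO 8 of the 15 factors differed at an adjusted p below 0.05, with 6 lower and 2 higher in D3MO. Among the lower ones, D3MO minus D1D2MO was -0.87 (adjusted p = 0.00311) for eef1a1l2 and -0.77 (adjusted p = 0.0241) for eif3f. Among the higher ones was the initiation factor eif5. It was at 0.35 (SE 0.083, adjusted p = 0.114) in D3MO and stood above D1D2MO by 1.02 (SE 0.083, adjusted p = 0.00311).

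**Figure D4:**
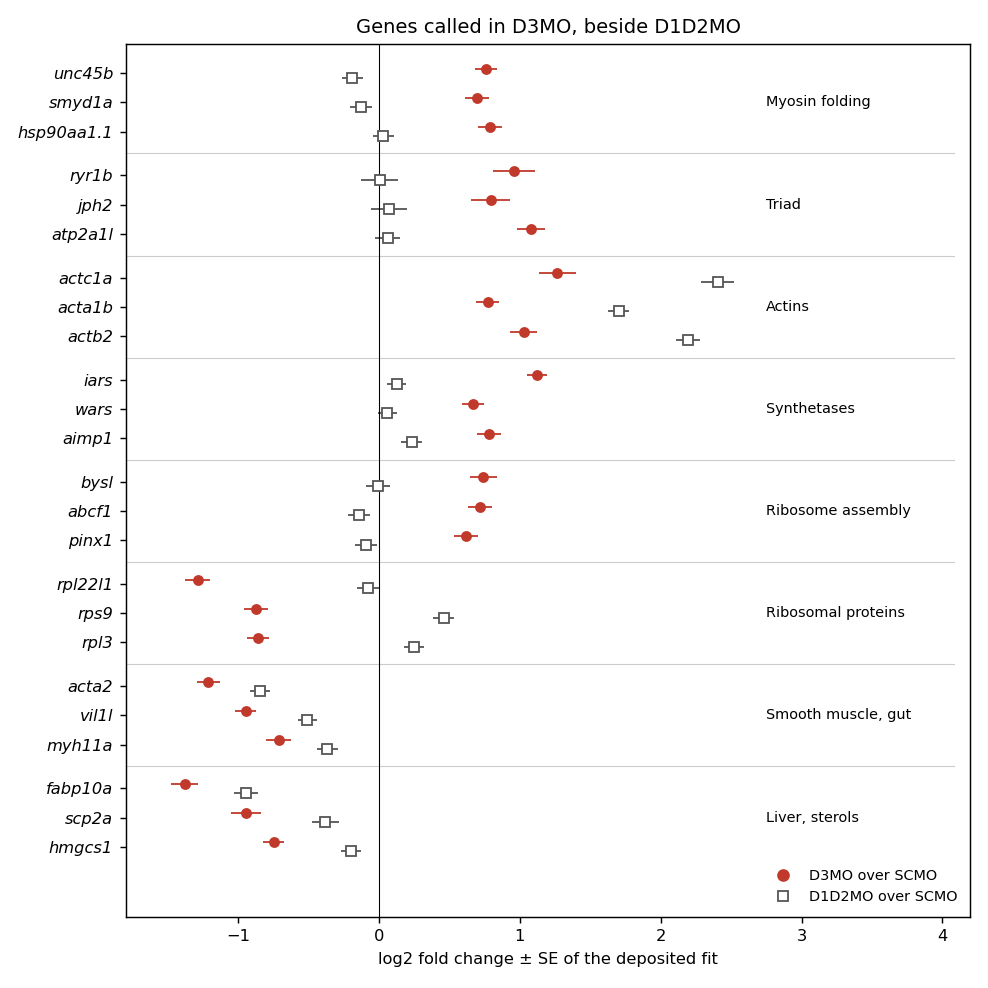
Points are log2 fold changes over SCMO with the SE of the deposited fit, for D3MO (filled circles) and D1D2MO (open squares), of 24 genes called in D3MO. The chaperone, triad, synthetase and ribosome assembly genes drawn lie above 0 in D3MO and near 0 in D1D2MO, and the actins lie higher in D1D2MO. The genes rps9 and rpl3 lie below 0 in D3MO and above 0 in D1D2MO, with rps9 at -0.88 and 0.46. Not drawn are the called triad genes atp2a1, casq1b and jph1b, at 0.50, 0.38 and 0.28 in D1D2MO, and the chaperone gene cct2, at 0.40. By these probes none of the genes not drawn passed the test of D3MO against D1D2MO. The other probe of jph1b was at -0.82 in D1D2MO and did pass, with a difference of 1.46 (adjusted p = 0.0086).

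A pair of smooth muscle genes and a gene of the gut lining were lower in D3MO. Of 7 named genes of smooth muscle and gut 3 fell and 1 rose, with a median of -0.25. Smooth muscle actin acta2 was at -1.21 (SE 0.080, adjusted p = 0.00225), a 2.32-fold lower level in D3MO, and the smooth muscle myosin myh11a was at -0.71 (SE 0.086, adjusted p = 0.0145). Villin, vil1l, which bundles actin in the microvilli of the gut lining, was at -0.95 (SE 0.075, adjusted p = 0.0044). The member that rose, desma at 0.61 (SE 0.079, adjusted p = 0.0177), encodes desmin, an intermediate filament of skeletal and heart muscle as well. In D1D2MO acta2 was at -0.85 and vil1l at -0.51, and both were lower in D3MO than in D1D2MO. The difference D3MO minus D1D2MO was -0.37 (adjusted p = 0.048) for acta2 and -0.44 (adjusted p = 0.0255) for vil1l. The fatty acid carrier of the gut lining fabp1b.1 was at 0.25 (SE 0.088, adjusted p = 0.305). Also on this list, tagln2 was at 0.03 (SE 0.081, adjusted p = 0.964) and tagln3b at -0.25 (SE 0.13, adjusted p = 0.538). Whether these 2 mark smooth muscle here was not tested.

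Liver transcripts were mixed. Of 13 named liver genes 3 fell and 1 rose, with a median of -0.19. Those that fell were the fatty acid carrier fabp10a at -1.38 (SE 0.094, adjusted p = 0.00225), the sterol carrier scp2a at -0.94 (SE 0.11, adjusted p = 0.0119) and the tryptophan-degrading enzyme tdo2a at -0.67 (SE 0.095, adjusted p = 0.0239). Both fabp10a probes were called. In D1D2MO the liver list median was -0.31, and fabp10a, scp2a and tdo2a were at -0.94, -0.38 and -0.42. D3MO minus D1D2MO was -0.44 (adjusted p = 0.0452) for fabp10a, -0.56 (adjusted p = 0.0319) for scp2a and -0.25 (adjusted p = 0.182) for tdo2a. For the second fabp10a probe the difference, -0.57 (adjusted p = 0.122), did not pass. The plasma iron carrier tfa passed the adjusted p at -0.56 (SE 0.094, adjusted p = 0.04) without reaching 1.5-fold, and the tyrosine-degrading enzyme hpda was past 1.5-fold at -0.67 (SE 0.12, adjusted p = 0.0526) without passing the test. Secreted products of the liver that did not pass were apoeb at 0.38 (SE 0.077, adjusted p = 0.0689), serpina1 at -0.29 (SE 0.072, adjusted p = 0.121) and rbp4 at -0.19 (SE 0.14, adjusted p = 0.748). Of 3 named genes of sterol synthesis and bile acids 2 fell, 1 of them scp2a, and 1 rose. The nuclear receptor nr0b2a, which represses bile acid synthesis in mammals, rose at 0.71 (SE 0.088, adjusted p = 0.0153), and hmgcs1, an enzyme of cholesterol synthesis, fell at -0.75 (SE 0.077, adjusted p = 0.0108). Both differed from D1D2MO, and D3MO minus D1D2MO was 0.70 (SE 0.088, adjusted p = 0.0105) for nr0b2a and -0.55 (SE 0.077, adjusted p = 0.0144) for hmgcs1. The only measured marker of exocrine pancreas, ppdpfa, was at -0.56 (SE 0.10, adjusted p = 0.0526), and its second probe was at 0.01.

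Red cell transcripts rose in 4 of 6 named genes and fell in none, with a median of 0.66. The embryonic beta globin hbbe3 had the highest value of all probes, 2.46 (SE 0.094, adjusted p = 0.000277), which is 5.52-fold, and its second probe was at 2.28. The alpha globins hbae1 and hbae3 were at 1.14 (SE 0.093, adjusted p = 0.0048) and 0.65 (SE 0.072, adjusted p = 0.0119), and the membrane anchor ank1 at 0.67 (SE 0.073, adjusted p = 0.0108). The iron transporter slc11a2 was at 0.64 (SE 0.15, adjusted p = 0.106). The globins hbbe3 and hbae1 were higher in D3MO than in D1D2MO, by 1.28 (adjusted p = 0.0026) and 0.57 (adjusted p = 0.0224), whereas hbae3 and ank1 differed by 0.30 and 0.27, which did not pass. For hbae1 and ank1 this depended on the probe. The other hbae1 probes differed by 0.37 (adjusted p = 0.233) and 0.09 (adjusted p = 0.558), and the other ank1 probe by 0.52 (adjusted p = 0.0223).

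Genes of energy metabolism were called about as often as named genes in general. Of 24 named genes of the respiratory chain and ATP synthase 3 rose, namely the ATP synthase subunits atp5b at 0.86 (SE 0.098, adjusted p = 0.0123) and atp5c1 at 0.69 (SE 0.11, adjusted p = 0.0353) and the pyruvate dehydrogenase component pdhx at 0.59 (SE 0.093, adjusted p = 0.0311), and the list median was 0.13. Of 21 genes of glycolysis and gluconeogenesis 1 rose and 2 fell, with a median of -0.04. The glycolytic enzyme gapdh was at 0.81 (SE 0.085, adjusted p = 0.0108) with all 4 probes called. The gluconeogenic enzyme fbp2 was at -0.93 (SE 0.12, adjusted p = 0.0176) and the aldolase aldocb at -0.75 (SE 0.13, adjusted p = 0.0396), whose other probe was at -0.08, so that the mean over both lost the call. Enzymes of the pathway that did not pass were ldha at -0.44 (SE 0.080, adjusted p = 0.0512), the muscle enolase eno3 at 0.45 (SE 0.099, adjusted p = 0.0916), the muscle glycogen phosphorylase pygma at 0.37 (SE 0.088, adjusted p = 0.113) and pfkma at -0.36 (SE 0.095, adjusted p = 0.145). Among muscle energy buffers ak1 rose at 1.49 (SE 0.073, adjusted p = 0.000843), and the creatine kinases ckmb and ckma were at 0.65 (SE 0.12, adjusted p = 0.0512) and 0.16 (SE 0.093, adjusted p = 0.598), with mitochondrial ckmt2 at 0.43 and the AMP deaminase ampd1 at -0.27. Of 10 proteasome genes psmb4 rose, at 0.73 (SE 0.078, adjusted p = 0.0108), and all 10 were positive, with a median of 0.17. The next by p-value, psmc2, psmc1a, psma4 and psmb6, lay between 0.18 and 0.32 and did not pass.

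None of the 4 named genes of the thyroid hormone pathway was called. The hormone-responsive transcription factor klf9 was at -0.31 (SE 0.098, adjusted p = 0.233), the transporter slc16a10 at -0.16 (SE 0.23, adjusted p = 0.914) and the myelin genes mbp and plp1a at -0.61 (SE 0.13, adjusted p = 0.0773) and 0.13 (SE 0.079, adjusted p = 0.62). Markers of other tissues followed. Of 17 nervous tissue genes 2 fell, pvalb8, a parvalbumin of neurons and ear, at -0.90 (SE 0.086, adjusted p = 0.0096) and aldocb, which was called with 1 of its probes. The neural progenitor genes her15.1 and nes were at 0.43 (SE 0.11, adjusted p = 0.132) and 0.32 (SE 0.082, adjusted p = 0.137), and tuba1l2 was at 0.28 (SE 0.081, adjusted p = 0.178). Of 14 genes on the skin list 1 fell, s100t at -0.72 (SE 0.089, adjusted p = 0.0153), and whether s100t marks skin here was not tested. On the same list the junction protein cldni was at -0.44 (SE 0.098, adjusted p = 0.093). The keratins krt4 and krt8 were at 0.23 and -0.17, and the fin-fold genes and1 and and3 at 0.19 and 0.26. Of 2 eye and ear markers the otolith gene stm fell, at -0.79 (SE 0.093, adjusted p = 0.0138), although the methods place the ear in the head region. Of 12 cartilage, bone and fin genes 3 rose, the matrix protease mmp2 at 0.60 (SE 0.083, adjusted p = 0.0212), the crosslinking enzyme tgm2a at 0.68 (SE 0.098, adjusted p = 0.0247) and the galectin lgals1l1 at 0.66 (SE 0.091, adjusted p = 0.0217), while col9a1 was at 0.40 (SE 0.14, adjusted p = 0.296). The collagens col1a1a and col1a2 were at -0.21 and -0.14, and D3MO minus D1D2MO was -0.97 (adjusted p = 0.00376) and -0.76 (adjusted p = 0.0129).

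Over all lists 75 of 273 measured genes were called, which is 27.5% against 13.2% of the named genes, and the lists were chosen with results of these data known. Members not yet given were ccng1 and rps27l. The cyclin ccng1 was at 1.57 (SE 0.16, adjusted p = 0.0101) with 3 of 4 probes called between 1.14 and 1.57, and rps27l, a paralogue of a small subunit protein, was at 1.29 (SE 0.074, adjusted p = 0.00122). A further 23 called genes belonged to no list. Genes of protein turnover and RNA handling among them that rose were the ubiquitin ligase lnx1 at 1.04 (SE 0.080, adjusted p = 0.0041), with both probes called, the deubiquitinase usp13 at 0.72 (SE 0.074, adjusted p = 0.0108), the RNA-binding protein fxr2 at 0.68 (SE 0.077, adjusted p = 0.0119) and the splicing factor srsf10b at 0.68 (SE 0.12, adjusted p = 0.0483). Smaller rises were found for the adhesion adaptor lims2 at 0.68, mtdhb at 0.60, the histone chaperone nap1l4a at 0.60 and sh3bgr at 0.60. Among those that fell were gcshb, a component of glycine cleavage, at -0.63 (SE 0.10, adjusted p = 0.032) and sid4 at -0.73 (SE 0.082, adjusted p = 0.0119).

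Of the 98 called genes 75 also differed between D3MO and D1D2MO at an adjusted p below 0.05. Of the 72 higher in D3MO than in SCMO, 48 were higher than in D1D2MO as well, 8 were lower and 16 did not pass. Of the 26 lower in D3MO than in SCMO, 19 were also lower than in D1D2MO, none was higher and 7 did not pass. The share of called genes that differed stands beside 5.57% of all probes, and having a name already favours such a difference. It is also read with the shared D3MO samples in mind, since an error in the D3MO samples enters both contrasts with the same sign. Both txlnbb and lnx1 lay below SCMO in D1D2MO without passing the test, at -0.19 and -0.12, and D3MO stood above D1D2MO by 1.60 (SE 0.11, adjusted p = 0.0026) and 1.17 (SE 0.080, adjusted p = 0.0026).

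The threshold left out changes on both of its sides. A total of 42 probes exceeded 1.5-fold with an adjusted p of 0.05 or more, 34 of them higher in D3MO, and their median SE was 0.177, against 0.091 for the called probes. Another 101 probes passed the adjusted p at 1.5-fold or less, 59 higher and 42 lower. Of the 144 called probes 11 had no symbol, 8 higher and 3 lower in D3MO, between -0.82 and 1.45. Of these the highest was 1.45 (SE 0.13, adjusted p = 0.00832), and it lay 1.41 above D1D2MO (adjusted p = 0.00415).

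The same knockdown was profiled in the head and the tail, and the study's list of changed transcripts gives the direction of each there. Only these directions were used, and the values that follow are those of the abdomen. Probes listed as up in head and tail, 38 in number, had an abdomen median of 0.57 with quartiles at 0.31 and 0.97, and all 38 were positive. The 148 listed as up in the tail only had a median of 0.23, and 140 were positive. The 69 listed as up in the head only had a median of 0.14, and none of them was called in the abdomen. On the other side the 9 listed as down in both had a median of -0.56, the 75 down in the tail only had -0.27 and the 87 down in the head only had -0.10. The list also holds transcripts that were included for their change in the abdomen, and without those the medians were 0.31, 0.10 and 0.14 for the classes up in both, in the tail only and in the head only.

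**Figure D5:**
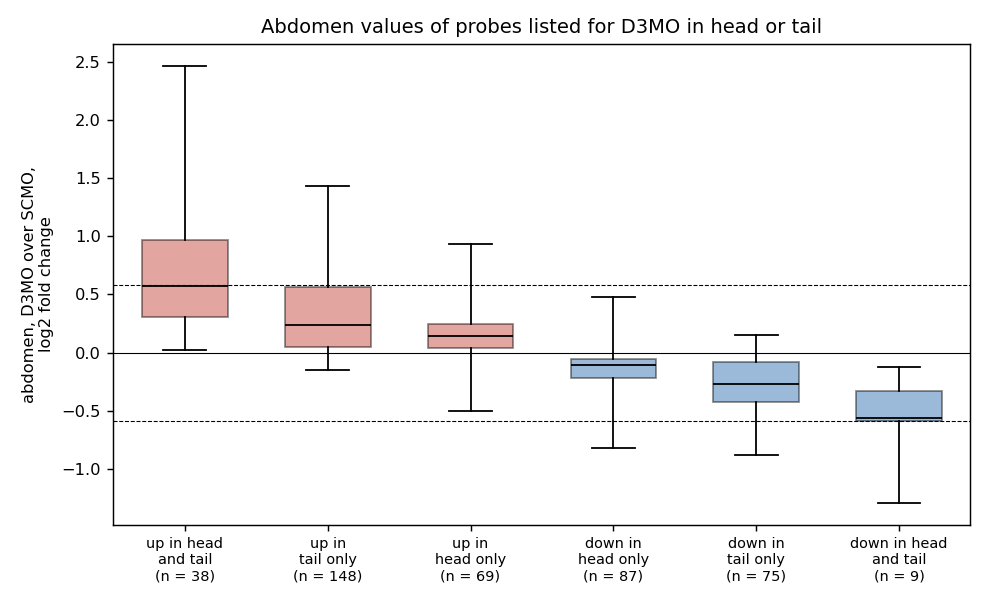
Boxes give the median and quartiles, and whiskers the full range, of the abdomen log2 fold change of D3MO over SCMO (y axis) for probes grouped by the direction listed for D3MO in head and tail. Medians are 0.57, 0.23 and 0.14 in the classes up in both, in the tail only and in the head only, and -0.10, -0.27 and -0.56 in the classes down in the head only, in the tail only and in both.

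By gene, 33 of the called genes that rose in the abdomen were listed as up in the tail and unchanged in the head. They included the actins, unc45b, hsp90aa1.1, mylpfa, ak1, gapdh, abcf1 and wars. Genes listed as up in head and tail as well included hbbe3, hbae1, txlnbb, iars, bysl, ccng1, rps27l, myhz1.1 and atp2a1l. A further 18 that rose in the abdomen were unchanged in both other regions, among them casq1b, tnnt3a, ttnb, smyhc3, mef2ca, cct2, ank1, tpm4a, pinx1, fxr2 and aimp1b. Of the genes that fell, 9 were unchanged in both, namely acta2, myh11a, vil1l, scp2a, stm, gcshb, rpl14, rpl7 and rpl30, and 7 were listed as down in the tail only, rps9, rpl3, rpl18 and rpl5b among them. The genes rpl22l1 and pvalb8 were listed as down in both. Of the 144 called probes 104 were on the list and 90 of these had entries for both regions. None of the 104 was listed with the opposite direction in head or tail. Of these, 20 called higher and 10 called lower were listed as unchanged in both regions, so they had no direction to compare. A further 7 called higher and 7 called lower lacked an entry for head or tail. A gene unchanged in a region is one that missed the threshold there, and the differences between regions were not tested.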

How the data were processed

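RNA from pooled abdomens of D3MO, D1D2MO and SCMO larvae was hybridised to 14 two-colour Agilent zebrafish arrays with balanced dyes. Per the methods, the authors scanned with GenePix, left out spots dim on every array, corrected background by a normal-exponential model, normalised each array by loess and fitted limma (version not given in the sources used here). Values deposited are the authors' log2 fold changes and mean log2 intensities, their p-values and adjusted p-values, and moderated t scores, per probe and contrast. Fitted contrasts are used because no values of single arrays were analysed here.

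From these, SEs were computed as the log2 fold change over t. Each t was recovered from the p-value and the degrees of freedom of the deposited fit. The p-values were adjusted by the Benjamini-Hochberg method over 13270 probes (1 control row left out). Both steps used Python 3.11.15, numpy and scipy. The adjusted p-values differed from the deposited ones by at most 2.83e-05. Calls needed an adjusted p below 0.05 and over 1.5-fold. The script was tested on simulated data. The deposited fit had 6.93 degrees of freedom and SEs of D3MO over SCMO 1.11 times those of D1D2MO over SCMO. A fit with 1 coefficient per group on these arrays would have at least 12 degrees of freedom and a ratio of 1.12, so the deposited fit was another one, and whether the SEs cover the spread between pools cannot be told. D3MO was in 8 of 28 array channels, which are dye repeats of 4 pools, so the number of pools limits the precision.

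Symbols came from the study's gene list by probe (671 probes) or accession (113) and from RefSeq accessions (104), and clone names are given by their RefSeq symbols where these exist. Coordinates are not given, since no build is named. The 24 gene lists and the members were chosen with earlier results of these data known. Named genes were the 15 highest and 15 lowest called genes, every called list member and up to 4 more per list in order of p. The uncalled genes myhz1.2, myhz2, smyhc2, actc1b, mybpc2b, smyd1b, rbp4, col1a2 and krt8 were chosen after their values were seen. So were the called genes in no list outside those 30. The results of 3 genes and of 1 list are not reported here, although they count in the totals. Alternatives covered the threshold, the adjustment, centring and the handling of several probes of a gene.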

Additional observations from a re-analysis of the deposited data

Results flagged for a closer look

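The ribosomal protein gene rpl7 was past the threshold in opposite directions in the 2 knockdowns. It was at -0.62 in D3MO and 0.63 in D1D2MO, each against SCMO, and the test of the difference gave -1.25 for D3MO minus D1D2MO (limma, adjusted p = 0.0026). Its second probe was at -0.56 in D3MO and 0.29 in D1D2MO, under 1.5-fold in both, with a difference of -0.85 (adjusted p = 0.00415), so the opposite calls rest on 1 probe. Samples far from their group could not be looked for, since values of single arrays were not analysed here.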

How the results depend on the processing

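The count of 144 called probes (109 higher, 35 lower) was 25 (18 and 7) at an adjusted p below 0.01, 245 (168 and 77) with no fold threshold, 34 (30 and 4) with a log2 fold change over 1 and 17 (13 and 4) with Benjamini-Yekutieli adjustment. Averaging by accession gave 100 calls, 72 higher and 28 lower. An adjusted p below 0.1 gave 163, 1 adjustment over the 3 contrasts 154 and centring on the median 144 (113 and 31). No called gene of the 96 reported changed direction. The mean over the probes of a gene, with their median adjusted p, kept the call of 84 of them, and called 62 list genes in place of 75. Among the lists it called 7 in place of 10 for the skeletal sarcomere and 3 in place of 6 for muscle calcium and triad. It called 2 in place of 5 for cytoskeletal actins and 1 in place of 2 for nervous tissue. Without probes listed for the abdomen, the medians were 0.31 for probes up in head and tail, 0.10 up in the tail only and -0.35 down in both. Leaving out each replicate was not run, because values of single arrays were not analysed here. No paired analysis was possible because the contrasts come without single samples and the labels pair none. Depth does not apply to arrays. Mean log2 intensities of probes over 1.5-fold ran between 6.68 and 15.5.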
